A study of Mus musculus with 54 samples.

Results

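The genes described here are the 10 genes with the symbols Tfrc, Slc11a1, Slc11a2, Fth1, Ftl1, Slc40a1, Hmox1, Aco1, Ireb2 and Lcn2, chosen by name as genes of iron handling out of 39179 genes counted in mouse macrophages. RNA sequencing was performed on adherent thioglycolate-elicited peritoneal exudate cells of C57BL/6 mice. In the 24 h experiment, cells of 3 mice were left unpolarized (M0), given LPS at 100 ng/ml together with IFNγ at 50 ng/ml (M1-like) or given IL-4 at 10 ng/ml (M2-like). Each of the 9 samples was sequenced as 2 technical replicates, whose counts were added up. In the transfection experiment, 12 conditions with 3 replicates each were sequenced: M0, M1-like and M2-like macrophages, the same 3 states treated with transfection reagent alone (mock), and M2-like macrophages transfected with a negative siRNA pool, with siRNA pools against E2f1, Myc, Pparg or Stat6, or with the 4 pools combined. On GRCm38 the annotation (GENCODE M21) places Tfrc (ENSMUSG00000022797) at chr16:32608920-32632794, Slc11a1 (ENSMUSG00000026177) at chr1:74375195-74386062, Slc11a2 (ENSMUSG00000023030) at chr15:100387898-100425072, Fth1 (ENSMUSG00000024661) at chr19:9980598-9985098, Ftl1 (ENSMUSG00000050708) at chr7:45457944-45459884, Slc40a1 (ENSMUSG00000025993) at chr1:45908068-45926523, Hmox1 (ENSMUSG00000005413) at chr8:75093621-75100589, Aco1 (ENSMUSG00000028405) at chr4:40143081-40198338, Ireb2 (ENSMUSG00000032293) at chr9:54863789-54912530 and Lcn2 (ENSMUSG00000026822) at chr2:32384633-32388252, all of them protein-coding. Transfected and mock cells were harvested 48 h after transfection. For untransfected macrophages the methods give sequencing at 24 h of polarization, and do not say separately whether this holds for the untransfected samples that were sequenced with the transfected ones. siRNA-transfected M2-like cells were kept without IL-4 after transfection, and whether LPS and IFNγ were removed is not stated in the sources used here. The methods speak of 3 biological replicates of M0, M1-like, M2-like and combined-pool cells. For the other conditions of the transfection experiment no source describes the numbered replicates, so that p-values there measure the spread between these samples, which may be technical.

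Macrophages take up iron bound to transferrin through the transferrin receptor and recover far larger amounts from the hemoglobin of engulfed red cells. Heme oxygenase releases the iron from heme, divalent metal transporters carry it across endosomal and phagosomal membranes, ferritin stores it and ferroportin exports it. Inside the cell, iron regulatory proteins bind hairpins called iron-responsive elements (IREs) in messenger RNAs when iron is scarce. Binding in the 5′ UTR of ferritin or ferroportin mRNA blocks translation, whereas binding in the 3′ UTR of transferrin receptor mRNA protects the transcript from decay. The latter control acts directly on transcript levels, which are what RNA sequencing counts.

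To show which of the 10 genes carry such a hairpin, the canonical IRE (a bulged C, 5 paired bases, a loop of the 6 bases CAGTGN whose last base is not G, and the 5 pairing bases) was searched in the annotated UTRs of 21875 coding genes (GENCODE M21, GRCm38). A match was present in 119 genes (0.544%), among them 4 of the 10 genes. The elements are printed 5′ to 3′ on the transcribed strand, with the loop in capitals.
Fth1, 5′ UTR: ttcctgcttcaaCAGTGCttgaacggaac
Ftl1, 5′ UTR: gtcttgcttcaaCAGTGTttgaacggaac
Slc40a1, 5′ UTR: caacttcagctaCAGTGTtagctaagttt
Tfrc, 3′ UTR, site 1: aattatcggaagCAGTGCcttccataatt
Tfrc, 3′ UTR, site 2: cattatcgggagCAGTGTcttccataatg
Tfrc, 3′ UTR, site 3: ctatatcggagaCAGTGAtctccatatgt
Tfrc, 3′ UTR, site 4: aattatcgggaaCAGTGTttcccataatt
On GRCm38 they lie at chr19:9982732-9982760 (plus strand), chr7:45459779-45459807 (minus strand), chr1:45925465-45925493 (minus strand) and, for Tfrc on the plus strand, chr16:32631219-32631247, chr16:32631598-32631626, chr16:32631663-32631691 and chr16:32631710-32631738. Tfrc was the member with several sites, all in the 3′ UTR, whereas both ferritin genes and Slc40a1 held a single site in the 5′ UTR. Slc11a2, Slc11a1, Hmox1, Aco1, Ireb2 and Lcn2 had no match to this pattern in their annotated UTRs. The search required this loop and all 5 pairs, so that hairpins departing from either were missed. A missing match therefore does not say that a gene lacks an IRE.

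The summed samples of the 24 h experiment held 39577911 to 59443987 counts and those of the transfection experiment 13421854 to 19704195, so that low genes were measured less precisely in the latter. Macrophage markers (8 genes, among them Adgre1, Csf1r and Lyz2) summed to 6448 to 18409 CPM (counts scaled to a common library size) in every sample of both experiments. The sum was lowest in M1-like cells. After 24 h it was 10392 to 11385 CPM there, 16161 to 17437 CPM in M0 and 12729 to 13060 CPM in M2-like samples. Without transfection these 3 states had 6955 to 8096, 16622 to 16988 and 16034 to 18409 CPM, and after mock treatment 6448 to 7490, 12906 to 15714 and 14842 to 16103 CPM. T-cell and erythroid markers summed to at most 1.18 and 0.73 CPM. The siRNA targets were reduced to 25.2% ± 4.1 (E2f1), 38.0% ± 8.0 (Myc), 21.9% ± 2.6 (Pparg) and 27.3% ± 5.8 (Stat6) of the mean of the negative pool by their own pools (SD, n = 3 each), and to between 28.3% (Pparg) and 60.4% (E2f1) by the combined pool. All levels below are CPM scaled by edgeR's TMM factors, n was 3 samples in every group, and differences are log2 fold changes ± SE from edgeR's quasi-likelihood test with Benjamini-Hochberg adjustment over all genes tested in that experiment. A gene is called changed at an adjusted p under 0.05.

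After 24 h, M1-like macrophages differed from M0 in all 10 genes, in a comparison in which 72.9% of the 16110 genes tested were called. Lcn2, Hmox1, Slc11a2, Fth1, Slc11a1, Slc40a1 and Ireb2 were higher in M1-like cells, and Tfrc, Ftl1 and Aco1 were lower. M2-like cells differed from M0 in 6 of the 10 genes (27.9% of all genes): Tfrc, Hmox1 and Aco1 were higher, and Fth1, Slc40a1 and Slc11a1 lower. Between M1-like and M2-like cells 9 of the 10 genes differed (72.6% of all genes), and Ireb2 did not pass the test. These 3 comparisons share samples, so that they are not independent. The median log2 fold change over the 10 genes was 0.69 for M1-like against M0, -0.13 for M2-like against M0 and 1.37 for M1-like against M2-like, beside -0.04, 0.00 and -0.06 over all genes tested.

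**Figure D1:**
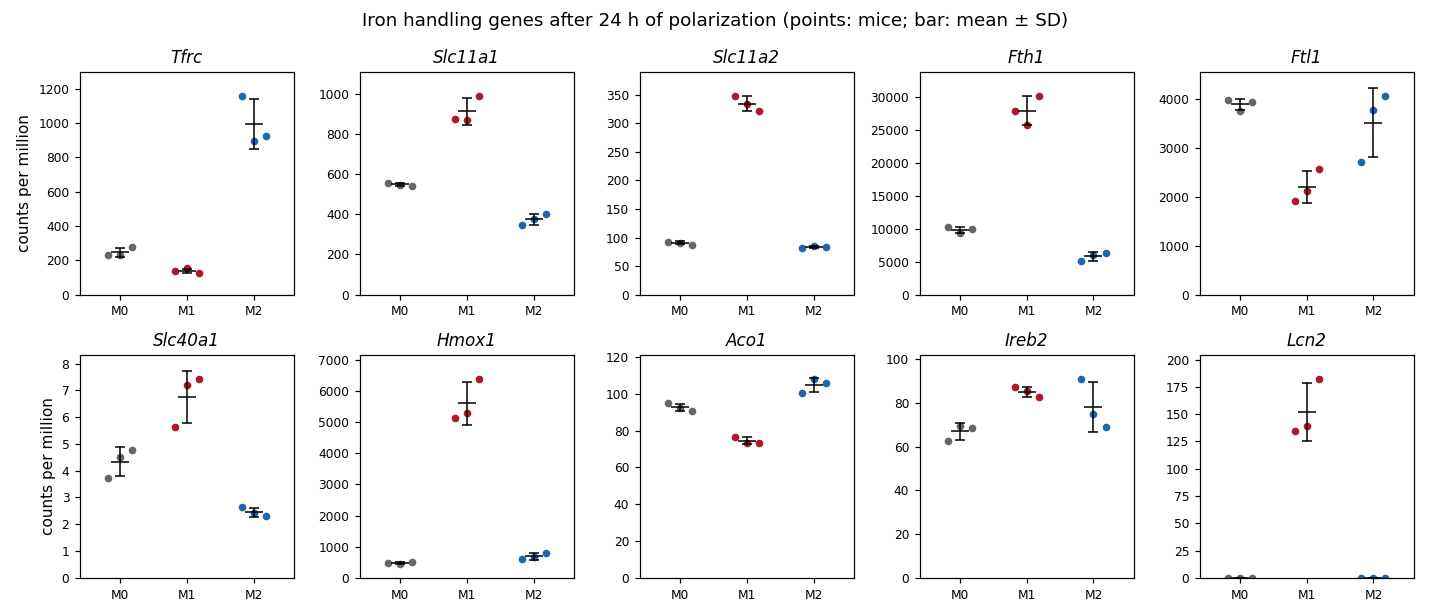
Levels of the 10 genes (vertical axes, CPM, from 0) in the 3 mice of each condition of the 24 h experiment; points are mice, the horizontal bars are means and the whiskers are ± SD. Tfrc was highest in M2-like cells (mean 992 CPM), whereas Hmox1 (mean 5608 CPM), Slc11a2 (mean 335 CPM) and Lcn2 (mean 152 CPM) were highest in M1-like cells.

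Per kilobase of coding transcripts, Fth1 was the highest of the 10 genes in M1-like cells (mean 17909 CPM per kb) and in M0 (6295), where Ftl1 held 2274 and 4024 CPM per kb. In M2-like cells the mean was 3729 CPM per kb for Fth1 and 3637 for Ftl1, and their order was not the same in every mouse. With the reads on its pseudogenes, described with the ferritin genes, Ftl1 would stand at 9765 CPM per kb in M0, 8872 in M2-like and 5600 in M1-like cells, above Fth1 in the first 2. The reads of Fth1 made up 2.15% to 2.44% of all counts in the M1-like samples and 0.55% to 0.71% in the M2-like samples. On the same per-length scale the lowest gene was Slc40a1 in M1-like cells (2.01 CPM per kb) and Lcn2 in M0 (0.20) and M2-like cells (0.11).

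Tfrc encodes the transferrin receptor, the main entry for transferrin-bound iron. The M0 samples held 230, 229 and 278 CPM, the M1-like samples 136, 152 and 125 CPM and the M2-like samples 1158, 895 and 922 CPM. The 3 conditions did not overlap, and IL-4 and LPS with IFNγ moved the gene in opposite directions from M0. M2-like cells were 2.01 ± 0.12 above M0 on the log2 scale (4.03-fold, adjusted p = 4.44e-07), M1-like cells were 0.83 ± 0.11 below it (1.78-fold, adjusted p = 3.21e-05), and M1-like and M2-like cells stood 7.19-fold apart (log2 fold change -2.85 ± 0.12, adjusted p = 6.53e-10).

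Slc11a2 encodes DMT1, the metal transporter that moves ferrous iron out of endosomes. Its level was 349, 335 and 321 CPM in M1-like samples, against 93.0, 91.2 and 87.8 CPM in M0 and 82.0, 85.0 and 82.9 CPM in M2-like samples. The M1-like samples were 3.69-fold above M0 (log2 fold change 1.89 ± 0.06, adjusted p = 2.97e-11). The M2-like samples lay just under every M0 sample, but the difference of -0.12 ± 0.06 did not pass the test (adjusted p = 0.126). Slc11a1 encodes NRAMP1, a metal transporter of the phagosome known for withholding metals from engulfed bacteria. Its M1-like samples held 875, 873 and 992 CPM, its M0 samples 558, 548 and 542 CPM and its M2-like samples 346, 378 and 402 CPM. The 3 conditions again did not overlap, here with M1-like cells on top: 0.73 ± 0.07 above M0 (adjusted p = 1.99e-06), with M2-like cells 0.55 ± 0.07 below M0 (adjusted p = 2.34e-04).

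The ferritin shell is built of a heavy chain with ferroxidase activity, encoded by Fth1, and a light chain, encoded by Ftl1. Fth1 was at 27866, 25691 and 30151 CPM in M1-like samples, at 10253, 9266 and 9904 CPM in M0 and at 5078, 6006 and 6347 CPM in M2-like samples. M1-like cells were thus 2.84-fold above M0 (1.51 ± 0.09, adjusted p = 1.23e-08), and in M2-like cells the gene fell by 0.76 on the log2 scale (SE 0.09, adjusted p = 7.56e-05). Ftl1 went the other way in M1-like cells, with 1911, 2128 and 2564 CPM against 3977, 3765 and 3943 CPM in M0 (log2 fold change -0.82 ± 0.14, adjusted p = 1.76e-04). The M2-like samples, at 2718, 3775 and 4070 CPM, overlapped M0 (adjusted p = 0.463). As a consequence of both movements, the ratio of Fth1 to Ftl1 CPM was 12.8 ± 1.5 in M1-like cells, 2.52 ± 0.06 in M0 and 1.67 ± 0.17 in M2-like cells (SD, n = 3). Ftl1 shares nearly all of its sequence with processed pseudogenes, and reads were counted on these too. Ftl1-ps1 held 3385 CPM, Ftl2-ps 1685 CPM and Ftl1-ps2 487 CPM on average in M0 of the 24 h experiment, so that the level of Ftl1 by itself is uncertain. With these pseudogenes added to Ftl1, the difference of M1-like cells from M0 was -0.80 (adjusted p = 1.10e-04).

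Slc40a1 encodes ferroportin, the iron exporter. It was a low transcript in these cells: 3.74, 4.51 and 4.78 CPM were measured in M0, 2.64, 2.40 and 2.32 CPM in M2-like and 5.65, 7.20 and 7.43 CPM in M1-like samples, from 114 to 357 reads a sample. The conditions did not overlap. M1-like cells were 0.64 ± 0.13 above M0 (adjusted p = 9.06e-04) and M2-like cells 0.83 ± 0.14 below it (adjusted p = 1.14e-03). Mesothelial markers (Msln, Upk3b and Wt1), listed for cells that could be carried over from the peritoneum, had a summed level of 0.11 to 0.27 CPM in M1-like samples, 0.37 to 0.62 CPM in M2-like samples and 0.46 to 1.01 CPM in M0. They were thus lowest where Slc40a1 was highest, and in M2-like samples overlapped M0. Their part in the level of Slc40a1 was not tested.

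Hmox1 encodes heme oxygenase 1, the inducible enzyme that opens the heme ring and frees its iron. Its level rose from 479, 441 and 514 CPM in M0 to 5132, 5302 and 6390 CPM in M1-like samples, an 11.7-fold difference (3.55 ± 0.13, adjusted p = 1.48e-10). M2-like samples held 591, 670 and 811 CPM, which was above every M0 sample (0.53 ± 0.12, adjusted p = 5.69e-03) and far below the M1-like samples.

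Aco1 and Ireb2 encode the iron regulatory proteins IRP1 and IRP2, and their transcripts moved little. Aco1 was at 76.6, 73.5 and 73.2 CPM in M1-like samples, 94.9, 92.2 and 90.8 CPM in M0 and 100, 108 and 106 CPM in M2-like samples. The 3 conditions did not overlap, although the differences from M0 were small: -0.32 ± 0.05 in M1-like cells (adjusted p = 1.62e-04) and 0.18 ± 0.05 in M2-like cells (adjusted p = 0.0248). The M2-like call was lost when any 1 of the 3 M0 samples or replicate 2 or 3 of the M2-like samples was left out (adjusted p = 0.053 to 0.097). Ireb2 had 62.4, 69.6 and 68.6 CPM in M0 and 87.1, 85.5 and 82.4 CPM in M1-like samples, a difference of 0.35 ± 0.09 (adjusted p = 4.30e-03). Its M2-like samples spread from 68.8 to 90.9 CPM and overlapped both other conditions. Without the highest of them, replicate 1, the M1-like samples were called higher than the M2-like samples (log2 fold change 0.24, adjusted p = 3.32e-03), and without the lowest, replicate 3, Ireb2 was called higher in M2-like cells than in M0 (0.31, adjusted p = 0.0206).

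Lcn2 encodes lipocalin-2, a secreted protein that binds bacterial siderophores and so keeps iron from bacteria. It was close to absent in M0 (0.12 to 0.26 CPM, 6 to 14 reads) and in M2-like samples (0.05 to 0.13 CPM, 2 to 7 reads), and stood at 135, 139 and 182 CPM in M1-like samples. The log2 fold change of M1-like cells was 9.67 ± 0.20 against M0 (adjusted p = 1.67e-12) and 10.49 ± 0.22 against M2-like cells (adjusted p = 1.58e-12). Lcn2 is also a granule protein of neutrophils. The 10 neutrophil markers listed for this reason summed to 10.1 to 15.2 CPM in the M1-like samples, below the 29.0 to 36.1 CPM in M0 and 37.2 to 42.3 CPM in M2-like samples. The lower sum came from Mmp8, which was at 0.59 to 0.83 CPM in M1-like samples, at 22.8 to 27.8 CPM in M0 and at 31.4 to 35.3 CPM in M2-like samples. Of the other markers, Ly6g, Camp and S100a8 were higher in M1-like cells along with Lcn2, and Ltf was lower. Ly6g had 0.26 to 0.56 CPM there and no read in M0 or M2-like samples, Camp had 0.15 to 0.33 CPM against at most 0.04 CPM, and S100a8 had 9.09 to 13.4 CPM against 5.62 to 7.996 CPM. Ltf had 0 to 0.03 CPM in M1-like samples, 0.20 to 0.26 CPM in M0 and 0.14 to 0.18 CPM in M2-like samples. Elane had no read in any condition of this experiment, and the remaining markers stayed at or under 0.04 CPM. The part of neutrophils in the level of Lcn2 was not tested.

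In the transfection experiment, the untransfected M1-like macrophages differed from M0 in 8 of the 10 genes (57.7% of the 14172 genes tested), M2-like from M0 in 4 (19.9%) and M1-like from M2-like in 7 (61.5%). In the mock-treated cells, 7 of the 10 genes differed between M1-like and M0 (60.4%), 2 between M2-like and M0 (3.83%) and 7 between M1-like and M2-like (60.7%). Tfrc was highest in M2-like cells, Lcn2 and Slc11a2 were highest in M1-like cells and Aco1 was lowest in M1-like cells, as they were in the 24 h experiment. Slc40a1 stood lowest in M1-like cells, where it was highest in the 24 h experiment. Hmox1, with 220 to 355 CPM in all 36 samples, showed hardly any difference between conditions. The experiments were sequenced with reads of 50 and 150 bases and normalized separately, and no test was made across them. Here too, comparisons that share a group are not independent.

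**Figure D2:**
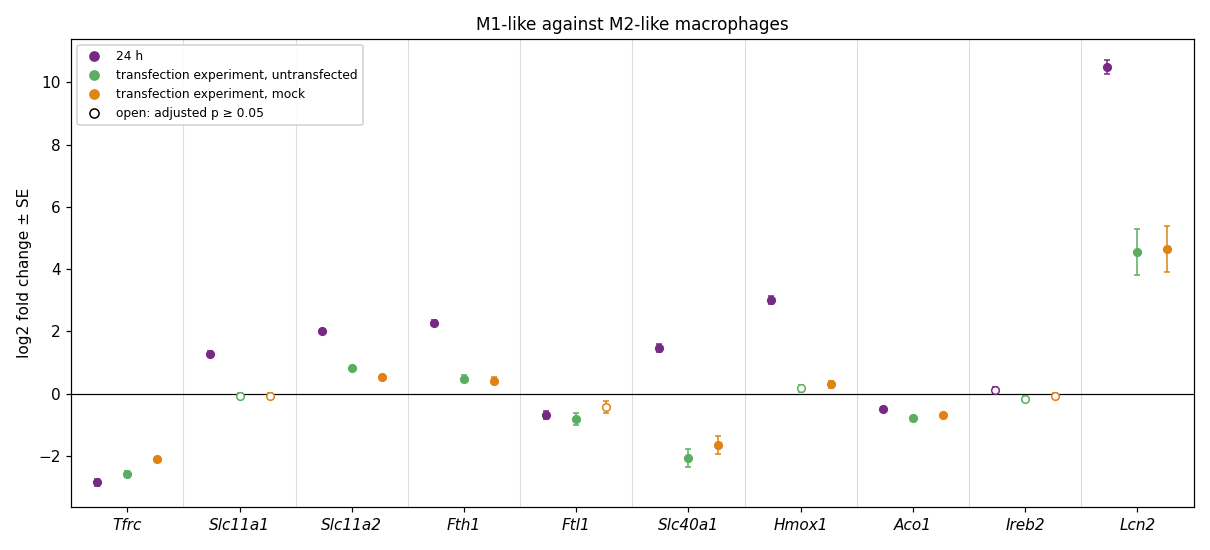
Difference between M1-like and M2-like macrophages (vertical axis, log2 fold change, above 0 is higher in M1-like) for the 10 genes after 24 h and in the transfection experiment, untransfected and mock-treated; whiskers are ± SE and open symbols did not pass an adjusted p of 0.05. Tfrc lay below 0 in all 3 comparisons (-2.85, -2.58 and -2.11), and Slc40a1 lay above 0 after 24 h (1.47) and below 0 in the other comparisons (-2.06 and -1.66).

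Tfrc levels in the untransfected cells were 469, 468 and 424 CPM in M2-like samples, 120, 133 and 111 CPM in M0 and 74.5, 85.0 and 67.9 CPM in M1-like samples. In mock-treated cells they were 367, 349 and 342 CPM in M2-like samples, 183, 160 and 171 CPM in M0 and 83.8, 84.7 and 76.6 CPM in M1-like samples. Within either treatment the 3 states were fully separated, in the order M2-like, M0, M1-like. M2-like cells exceeded M0 by 1.90 ± 0.09 without transfection (adjusted p = 9.75e-17) and by 1.04 ± 0.09 after mock treatment (adjusted p = 8.41e-10), a reduction of 0.86 ± 0.12 that was itself significant (interaction, adjusted p = 2.14e-05).

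Slc11a2 was highest in M1-like samples, with 218, 193 and 187 CPM untransfected and 177, 180 and 162 CPM after mock treatment. The M0 samples held 91.9, 88.8 and 86.1 CPM untransfected and 140, 145 and 154 CPM after mock treatment. Mock-treated M0 cells were thus higher, and their gap to M1-like cells was smaller. The M1-like excess was 1.16 ± 0.06 untransfected (adjusted p = 1.17e-16) and 0.24 ± 0.06 after mock treatment (adjusted p = 1.04e-03), and the change of 0.92 ± 0.09 between them passed the test (interaction -0.92, adjusted p = 1.28e-08). M2-like cells were 0.34 ± 0.06 above M0 untransfected (adjusted p = 1.95e-04) and 0.30 ± 0.06 below it after mock treatment (log2 fold change -0.30, adjusted p = 3.23e-03). In a fit of the 2 mock groups alone, the latter call was lost (adjusted p = 0.138). Slc11a1 showed no difference between the untransfected states, whose means lay between 601 and 629 CPM, and was 0.30 ± 0.08 lower in mock-treated M1-like than mock-treated M0 cells (log2 fold change -0.30, adjusted p = 2.80e-03).

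Without transfection, Fth1 was at 21326, 13808 and 17243 CPM in M1-like samples, 12443, 10919 and 14035 CPM in M2-like samples and 8557, 8575 and 8805 CPM in M0. Both polarized states lay above M0, by 1.01 ± 0.11 (adjusted p = 2.50e-09) and 0.53 ± 0.11 (adjusted p = 7.39e-04). The M2-like direction was thus opposite to that in the 24 h experiment, and the difference between the experiments was not tested. After mock treatment, M0 cells reached 11636 to 13409 CPM, and the M1-like excess over M0 shrank to 0.30 ± 0.11 (adjusted p = 0.0197), a call that was lost without replicate 2 or 3 of mock M0 or replicate 1 or 3 of mock M1-like cells (adjusted p = 0.056 to 0.127) and in a fit of these 2 groups alone (adjusted p = 0.080). Ftl1 was lower in untransfected M1-like cells (1777, 1088 and 1046 CPM) than in M0 (2401, 2641 and 2911 CPM), with a log2 fold change of -1.02 ± 0.20 (adjusted p = 4.60e-05). Replicates of untransfected M2-like cells were spread widely for this gene, from 1470 to 3207 CPM. Mock-treated M1-like cells were lower in Ftl1 by about the same amount against mock M0 (-0.44 ± 0.20, adjusted p = 0.052) and mock M2-like cells (-0.44 ± 0.20, adjusted p = 0.0538). Neither passed the main test or DESeq2, but both were called with the pseudogene reads added (log2 fold changes -0.62 and -0.55, adjusted p = 2.87e-04 and 1.01e-03). RLE normalization, a filter of at least 10 counts in every sample and a replicate block each called both (adjusted p = 0.032 to 0.044). So did edgeR without a filter and in a fit of the compared groups alone. They were also called without mock M1-like replicate 3 (adjusted p = 0.0362 against mock M0 and 0.0368 against mock M2-like cells) and, against mock M2-like cells, without mock M2-like replicate 2 (adjusted p = 0.0200).

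Slc40a1 in untransfected cells was 4.61, 5.46 and 4.64 CPM in M0, 5.44, 5.61 and 6.02 CPM in M2-like and 1.28, 1.41 and 1.39 CPM in M1-like samples. In mock-treated cells M1-like samples held 1.20, 1.37 and 1.39 CPM, M0 samples 7.64, 8.11 and 5.94 CPM and M2-like samples 2.50, 4.91 and 5.23 CPM. M1-like cells, with 21 to 28 reads a sample, stood below every other sample of the experiment, 3.61-fold under M0 without transfection (-1.85 ± 0.30, adjusted p = 2.74e-06) and 5.46-fold after mock treatment (-2.45 ± 0.27, adjusted p = 3.73e-09). Mesothelial markers were also lowest in M1-like cells of this experiment, with a summed level of 0.37 to 1.20 CPM untransfected and 0.29 to 0.75 CPM mock-treated, against 4.53 to 7.76 CPM in M0 and 7.30 to 22.8 CPM in M2-like samples. Whether these cells had a part in the level of Slc40a1 was not tested. In bulk samples, fewer cells of a type and less RNA per cell cannot be told apart.

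Without transfection, Hmox1 was at 340, 301 and 308 CPM in M1-like samples, 287, 307 and 355 CPM in M0 and 270, 277 and 296 CPM in M2-like samples. The M1-like mean equalled that of M0 to within the spread (log2 fold change 0.00 ± 0.11, adjusted p = 0.996). Mock-treated M1-like samples (322, 300 and 325 CPM) were above all mock M2-like samples (253, 261 and 253 CPM), by 0.31 ± 0.11 (adjusted p = 0.0215), and this call was lost without replicate 1 or 3 of either group (adjusted p = 0.052 to 0.058). Against mock M0, the M1-like difference of 0.19 ± 0.11 was called only without mock M0 replicate 3 (0.32, adjusted p = 0.0214).

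Aco1 was again lowest in M1-like cells, with 75.7, 93.7 and 89.8 CPM untransfected and 82.3, 93.6 and 88.2 CPM mock-treated, and highest in M2-like cells, with 146, 146 and 155 CPM and 132, 138 and 151 CPM. The M1-like and M2-like samples did not overlap in either treatment, and differed by -0.78 ± 0.07 (adjusted p = 1.63e-11) and -0.67 ± 0.07 (adjusted p = 5.56e-10). M2-like cells exceeded M0 by 0.24 ± 0.07 without transfection (adjusted p = 0.0110), a call lost without M0 replicate 1 (adjusted p = 0.0616) or M2-like replicate 3 (adjusted p = 0.0506). Ireb2 ranged from 44.6 to 66.2 CPM over all 36 samples. It was lower in M1-like than M0 cells without transfection (-0.25 ± 0.08, adjusted p = 0.0120), the reverse of its direction in the 24 h experiment, and this was lost without M1-like replicate 3 (adjusted p = 0.0510).

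Lcn2 in M1-like cells was 6.35, 7.30 and 10.3 CPM untransfected and 7.12, 7.76 and 9.69 CPM mock-treated. All of these lay above the other 30 samples, of which the highest was mock M0 replicate 3 with 3.79 CPM (58 reads) and the rest stayed at or under 1.09 CPM. The M1-like excess over M0 was 3.86 ± 0.68 untransfected (adjusted p = 1.35e-05) and 2.61 ± 0.59 mock-treated (adjusted p = 2.99e-04), and the latter became 5.69 without that mock M0 sample (adjusted p = 5.29e-08). Against M2-like cells it was 4.54 ± 0.74 untransfected and 4.66 ± 0.74 mock-treated (adjusted p = 3.14e-06 and 2.50e-06), and these became 5.80 without M2-like replicate 3 and 5.86 without mock M2-like replicate 2. With a filter of at least 10 counts in every sample, Lcn2 was not tested.

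**Figure D3:**
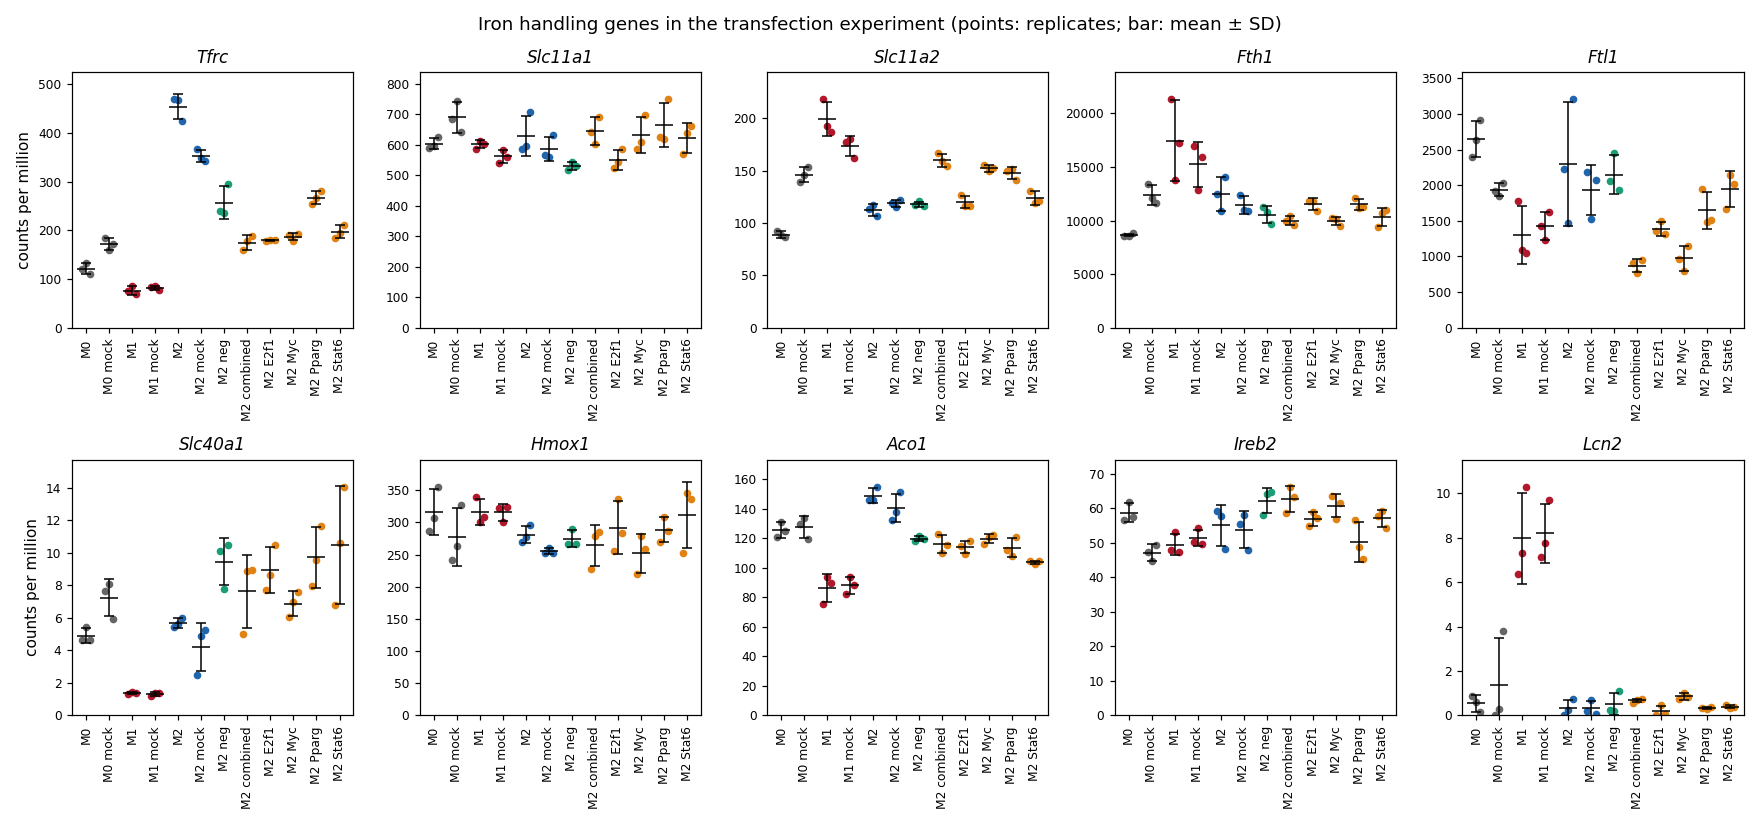
Levels of the 10 genes (vertical axes, CPM, from 0) in the 12 conditions of the transfection experiment; points are replicates, the horizontal bars are means and the whiskers are ± SD. Tfrc falls from M2-like cells (mean 454 CPM) over mock (352 CPM) and negative pool (257 CPM) to the Myc and combined pools (186 and 175 CPM), Slc40a1 is lowest in M1-like cells (means 1.36 and 1.32 CPM), and Lcn2 exceeds 6 CPM in M1-like cells only.

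Mock-treated M0 cells differed from untransfected ones in 4 of the 10 genes (20.4% of all genes). The same comparison called 1 of the 10 genes in M2-like cells (1.77%) and none in M1-like cells (0%). In M0 cells, Slc11a2 was 0.72 ± 0.06 higher (adjusted p = 3.32e-10), Fth1 0.52 ± 0.11 higher (adjusted p = 7.94e-04) and Tfrc 0.50 ± 0.09 higher (adjusted p = 5.89e-05), and Ireb2 was lower (log2 fold change -0.32 ± 0.08, adjusted p = 6.11e-03). In M2-like cells Tfrc was lower (-0.36 ± 0.08, adjusted p = 0.0108), which was lost without replicate 1 or 2 of the untransfected or replicate 2 or 3 of the mock cells (adjusted p = 0.057 to 0.076). In M1-like cells, where edgeR and DESeq2 each called 0 genes and 438 genes had an unadjusted p under 0.05 in edgeR, 1 of the 10 genes, Slc11a2, was among the latter. Mock cells were harvested 48 h after transfection and untransfected cells, as far as the methods go, at 24 h of polarization. Whether IL-4, or LPS and IFNγ, were withdrawn from mock cells is not stated separately. Reagent, time in culture and any withdrawal of the stimulus therefore cannot be told apart here.

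The effect of polarization differed between mock-treated and untransfected cells for 4 of the 10 genes in the contrast of M1-like with M0 (9.07% of all genes). In the contrast of M2-like with M0 it differed for 3 (5.66%). Reagent, time in culture and any withdrawal of the stimulus cannot be told apart in this test either. Fth1, Slc11a2 and Tfrc were called in both contrasts, which share the M0 and mock M0 samples. For Fth1 the difference of the log2 fold changes, mock minus untransfected, was -0.71 ± 0.16 for M1-like cells (adjusted p = 2.35e-03) and -0.64 ± 0.16 for M2-like cells (adjusted p = 0.0102). The remaining calls were Tfrc (-0.39 ± 0.12, adjusted p = 0.0395) and Ireb2 (0.37 ± 0.12, adjusted p = 0.0413) in the M1-like contrast. Each of them was lost on leaving out any of 8 of the 12 samples, with adjusted p of 0.052 to 0.130 for Tfrc and 0.053 to 0.116 for Ireb2.

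Next, siRNA transfection of M2-like macrophages was examined. The negative siRNA pool by itself changed 3 of the 10 genes against mock (11.7% of all genes). Slc40a1 rose from 2.50, 4.91 and 5.23 CPM to 10.1, 7.80 and 10.5 CPM (1.18 ± 0.23, adjusted p = 6.77e-04), and Tfrc fell by 0.46 on the log2 scale (SE 0.08, adjusted p = 3.12e-04) to 239, 236 and 295 CPM. Aco1 fell by 0.23 (SE 0.07, adjusted p = 0.0241), a call lost without replicate 3 of mock or any 1 replicate of the negative pool (adjusted p = 0.052 to 0.174). The summed mesothelial markers were 10.6 to 19.7 CPM in the mock and 14.8 to 20.02 CPM in the negative pool samples.

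Relative to the negative pool, the combined pool, which the study calls iM1, changed 4 of the 10 genes (26.5% of all genes), the Myc pool 4 (29.6%), the Pparg pool 3 (5.74%), and the E2f1 and Stat6 pools 1 each (0.91% and 1.51%). These 5 comparisons share the negative pool samples. In both the combined and the Myc knockdown, Ftl1 and Tfrc were lower and Slc11a1 and Slc11a2 higher. Pparg knockdown raised the transporters Slc11a1 and Slc11a2 and lowered Ireb2, and the E2f1 and Stat6 pools lowered Tfrc. Slc40a1, Fth1, Hmox1, Aco1 and Lcn2 were called in none of the 5 comparisons by the main edgeR fit or DESeq2. Other edgeR settings called Slc40a1 lower with the Myc pool. These were a replicate block (-0.48, adjusted p = 0.0367), no filter (-0.46, adjusted p = 0.0404) and the compared groups alone (-0.47, adjusted p = 0.0239). Set against mock instead of the negative pool, Slc40a1 was called higher with every pool (log2 fold changes 0.87 combined, 1.09 E2f1, 0.71 Myc, 1.21 Pparg and 1.33 Stat6), Aco1 was called lower with every pool (-0.44 to -0.23), and Tfrc was called lower with the Pparg pool too (-0.40, adjusted p = 7.49e-04).

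Ftl1 was at 900, 763 and 952 CPM with the combined pool and 969, 801 and 1148 CPM with the Myc pool, against 2055, 2454 and 1929 CPM with the negative pool. The groups did not overlap, and the log2 fold changes were -1.30 ± 0.20 (adjusted p = 8.77e-06) and -1.14 ± 0.20 (adjusted p = 4.49e-05). With the pseudogenes added they were -1.18 and -1.06 (adjusted p = 1.34e-07 and 6.91e-07). The E2f1 pool samples (1358, 1502 and 1314 CPM) also lay under all negative pool samples, but the difference of -0.63 ± 0.20 was not called (adjusted p = 0.150). It was called without a filter (adjusted p = 4.87e-07) and in a fit of the compared groups alone (adjusted p = 0.00264). With the pseudogenes added it was not called (-0.50, adjusted p = 0.0801). The Pparg pool difference (-0.38 ± 0.20, adjusted p = 0.284) was also called in the former 2 settings (adjusted p = 0.00529 and 0.0443) and not with pseudogenes added (adjusted p = 0.567). Fth1 stayed between 9372 and 12096 CPM in all 15 knockdown samples, and its log2 fold changes against the negative pool were between -0.08 and 0.13. The ratio of Fth1 to Ftl1 CPM was accordingly 11.6 ± 1.8 with the combined and 10.5 ± 2.2 with the Myc pool (SD, n = 3). It was 8.31 ± 0.40 with E2f1, 7.07 ± 0.75 with Pparg, 5.34 ± 0.34 with Stat6 siRNA and 4.95 ± 0.54 with the negative pool. Mock-treated M1-like and M2-like cells had 10.7 ± 1.1 and 6.03 ± 1.03, and untransfected ones 13.7 ± 2.4 and 5.80 ± 1.54. Pseudogene reads are not included in these ratios.

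Tfrc was at 159, 177 and 188 CPM with the combined pool, 179, 180 and 180 CPM with E2f1, 190, 178 and 191 CPM with Myc, 185, 195 and 211 CPM with Stat6 and 254, 267 and 280 CPM with Pparg siRNA. All samples but those of the Pparg pool were below the lowest negative pool sample (236 CPM). The log2 fold changes were -0.56 ± 0.09 (combined, adjusted p = 9.20e-06), -0.52 ± 0.09 (E2f1, adjusted p = 8.40e-04), -0.46 ± 0.08 (Myc, adjusted p = 1.02e-04) and -0.38 ± 0.09 (Stat6, adjusted p = 0.0136). The Stat6 call was lost without Stat6 replicate 1 or 2 or negative pool replicate 3 (adjusted p = 0.069 to 0.199). Even the lowest of these samples stayed above the M1-like samples of this experiment, of which the highest had 85.0 CPM.

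Slc11a2 had 167, 159 and 154 CPM with the combined, 156, 149 and 152 CPM with the Myc and 149, 152 and 141 CPM with the Pparg pool, above the negative pool with 117, 121 and 116 CPM. These differences were 0.44 ± 0.06 (adjusted p = 2.27e-06), 0.37 ± 0.06 (adjusted p = 2.63e-05) and 0.33 ± 0.06 (adjusted p = 9.16e-04), while the E2f1 and Stat6 values overlapped the negative pool. For Slc11a1 the same 3 pools gave differences of 0.28 ± 0.08, 0.25 ± 0.08 and 0.33 ± 0.08 (adjusted p = 0.0109, 0.0215 and 0.0147). The Slc11a1 calls depended on single samples. The call for the combined pool was lost without its replicate 3 (adjusted p = 0.0715), and those for Myc and Pparg without replicate 3 of their own pool (adjusted p = 0.172 and 0.186) or replicate 1 or 3 of the negative pool (adjusted p = 0.057 to 0.075). With mock as the reference, all 3 were lost (adjusted p = 0.196, 0.329 and 0.138), whereas those of Slc11a2 were kept. The Ireb2 decrease with the Pparg pool (-0.31 ± 0.08, adjusted p = 0.0220) was lost without replicate 2 or 3 of either group (adjusted p = 0.081 to 0.183) and with mock as the reference (adjusted p = 0.480).

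**Figure D4:**
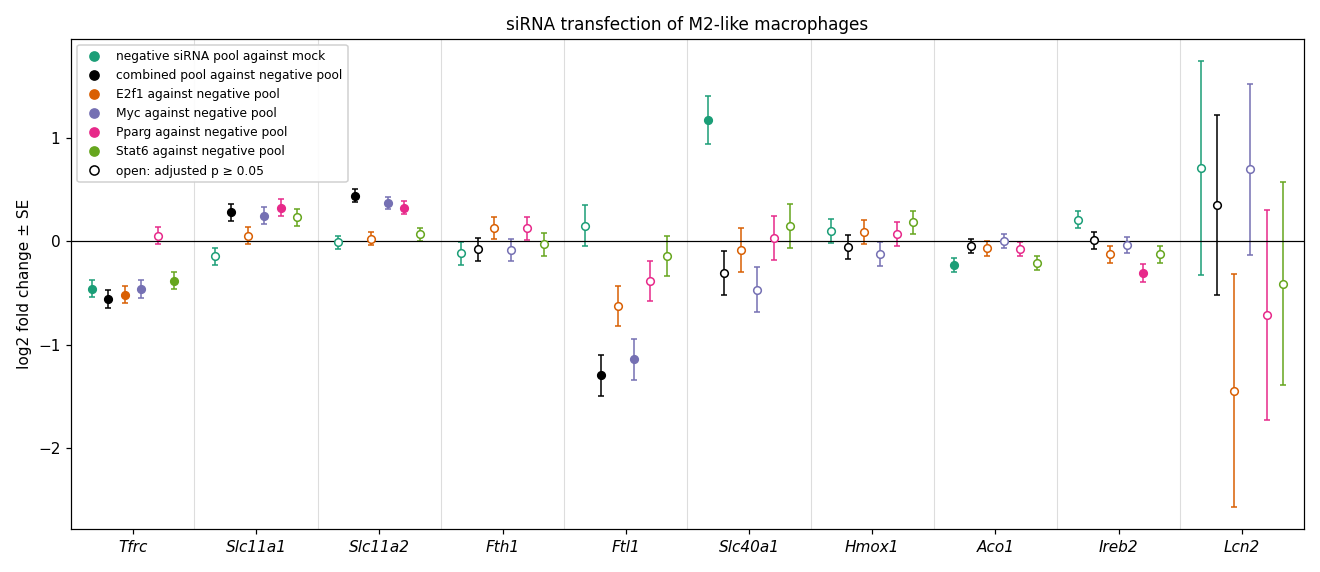
Log2 fold change of the 10 genes (vertical axis) on transfecting M2-like macrophages with the negative siRNA pool (against mock) and with the siRNA pools (against the negative pool); whiskers are ± SE and open symbols did not pass an adjusted p of 0.05. Ftl1 was lowest with the combined and Myc pools (-1.30 and -1.14), Tfrc lay below 0 with every pool except Pparg (0.06), and the rise of Slc40a1 (1.18) appeared with the negative pool.

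As a description of how the 10 genes were distributed over the 12 conditions of the transfection experiment, each was correlated with all other genes of a mean log2 CPM of at least 2, over the 12 condition means of log2 CPM. These points come from the same libraries and include conditions that differ little. Each r below is the highest or next highest over all these genes, and no reference was computed for such a maximum. Lcn2 itself lay under the level required of its partners (mean log2 CPM -0.34). The gene closest to Ftl1 was the pseudogene Ftl2-ps (r = 0.996), and next came Ttpal (r = 0.972). Slc40a1 was closest to Il1r1, the receptor of interleukin-1, and Fkbp10, a collagen chaperone (both r = 0.98). Tfrc was closest to Mrgpre and Agpat3 (r = 0.95 each), Slc11a2 to Parp8 (r = 0.97), Aco1 to P2rx7 and Plekho2 (r = 0.97 and 0.96), Fth1 to Lrrc8c and Usf3 (r = 0.95 and 0.94), and Lcn2 to Tmem115 and Fanca (r = 0.99 and 0.98). Ireb2 was closest to Lrrc57 and Hspbap1 (r = 0.94 and 0.93). Hmox1 (Gm10420 and Mcm3, r = 0.90 and 0.88) and Slc11a1 (Yif1b and Plxna1, r = 0.91 and 0.86) had looser neighbours. Among the 10 genes themselves, Aco1 and Tfrc were the closest pair (r = 0.83), and Lcn2 and Slc40a1 the most opposed (r = -0.86).

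Besides the 10 genes, a wider list of 58 genes of iron uptake, heme uptake and breakdown, storage, export, regulation, mitochondrial iron and iron-sulfur cluster assembly was followed. After 24 h, 49 were tested, of which 15 were higher and 28 lower in M1-like cells than in M2-like cells (34.6% and 38.1% of all genes). In the mock-treated cells 50 were tested, with 13 higher and 29 lower (30.9% and 29.8% of all genes). The median log2 fold changes of the list were -0.30 and -0.39, beside -0.06 and 0.03 over all genes. Of 36 genes called in both, 28 had the same direction and 8 the opposite direction (77.8% the same way, beside 74.6% of the 6531 genes called in both over all genes), which is close to the share over all genes.

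By role, 5 of 7 uptake genes were lower and 1 higher in M1-like than M2-like cells after 24 h (38.1% and 34.6% of all genes). Lower and higher were 6 and 3 of 10 heme genes, 10 and 6 of 19 mitochondrial and cluster genes and 4 and 4 of 8 regulators. For storage they were 2 and 0 of 3 genes and for export 1 and 1 of 2. After mock treatment (29.8% and 30.9% of all genes) they were 5 and 2 of 8 uptake, 7 and 0 of 9 heme and 6 and 9 of 19 mitochondrial genes. Regulators had 5 and 2 of 8, storage and export 3 and 0 of 3 each. After 24 h the genes named for the largest decreases, Epas1, Hfe and Ltf, came from different roles. Those of the mock-treated cells, Ltf, Trf and Steap4, were all uptake genes. Epas1, among the regulators and encoding the hypoxia-inducible factor HIF-2α, was at 5.63 ± 0.37 CPM in M1-like cells, against 241 ± 10 CPM in M2-like cells, after 24 h (SD; log2 fold change -5.41 ± 0.08, adjusted p = 1.59e-13). Hfe, listed with export and hepcidin and known as the gene of hereditary hemochromatosis, whose product binds the transferrin receptor, was at 1.44 ± 0.19 and 39.8 ± 2.0 CPM (-4.78 ± 0.10, adjusted p = 1.12e-12). Both were lower by more than 3-fold in mock-treated M1-like cells as well, with log2 fold changes of -3.09 and -1.79. Ltf, encoding lactoferrin and also among the neutrophil markers, was near 0 in M1-like cells (at most 0.03 CPM after 24 h and 0.05 CPM after mock treatment) and low in M2-like cells (0.14 to 0.18 CPM and 0.98 to 1.61 CPM). In mock-treated cells Trf, encoding transferrin, fell by 3.57 on the log2 scale (SE 0.16, 6.16 ± 1.14 against 72.9 ± 5.9 CPM) and the ferrireductase gene Steap4 by 3.57 (SE 0.48, 0.27 ± 0.09 against 3.28 ± 0.62 CPM).

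The genes that rose most in M1-like cells included Slc25a37, which encodes mitoferrin-1, the iron importer of mitochondria. It was at 494 ± 45 CPM in M1-like cells, against 37.6 ± 1.4 CPM in M2-like cells, after 24 h (3.72 ± 0.09, adjusted p = 3.59e-12) and at 250 ± 22 and 36.6 ± 5.0 CPM after mock treatment (2.77 ± 0.11, adjusted p = 2.18e-20). Fbxl5, encoding the iron-sensing subunit of the ligase that degrades IRP2, was higher by 2.43 ± 0.10 after 24 h (adjusted p = 4.39e-10) and 0.97 ± 0.10 after mock treatment (adjusted p = 3.73e-10). Hpx, encoding the heme scavenger hemopexin, was also higher after 24 h, at a level of only 0.30 ± 0.01 CPM (2.03 ± 0.48). After mock treatment Cisd1, encoding an iron-sulfur protein of the outer mitochondrial membrane, was higher by 1.04 ± 0.15. The ferrireductase gene Cybrd1 was called there with a larger value (2.21 ± 0.78, adjusted p = 0.0147), but from means of 0.44 and 0.089 CPM and with overlapping samples. Cisd1 was lower in M1-like cells after 24 h (-1.05 ± 0.08). Under knockdown, 6 of the 50 genes tested from the list were higher and 14 lower with the combined pool (12.5% and 13.9% of all genes), and 10 higher and 12 lower with the Myc pool (13.9% and 15.6% of all genes). Trf was lower with both (-1.92 ± 0.15 and -1.85 ± 0.15), Hfe was lower with both (-0.83 ± 0.09 and -0.80 ± 0.09), and Slc25a37 was higher with both (0.81 ± 0.10 and 0.79 ± 0.10). With the Pparg pool 2 were higher and 5 lower (2.71% and 3.03% of all genes), with the Stat6 pool 0 and 2 (0.466% and 1.04%), and with the E2f1 pool 0 and 0 by edgeR (0.261% and 0.649%), where 5 of the 50 had an unadjusted p under 0.05.

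**Figure D5:**
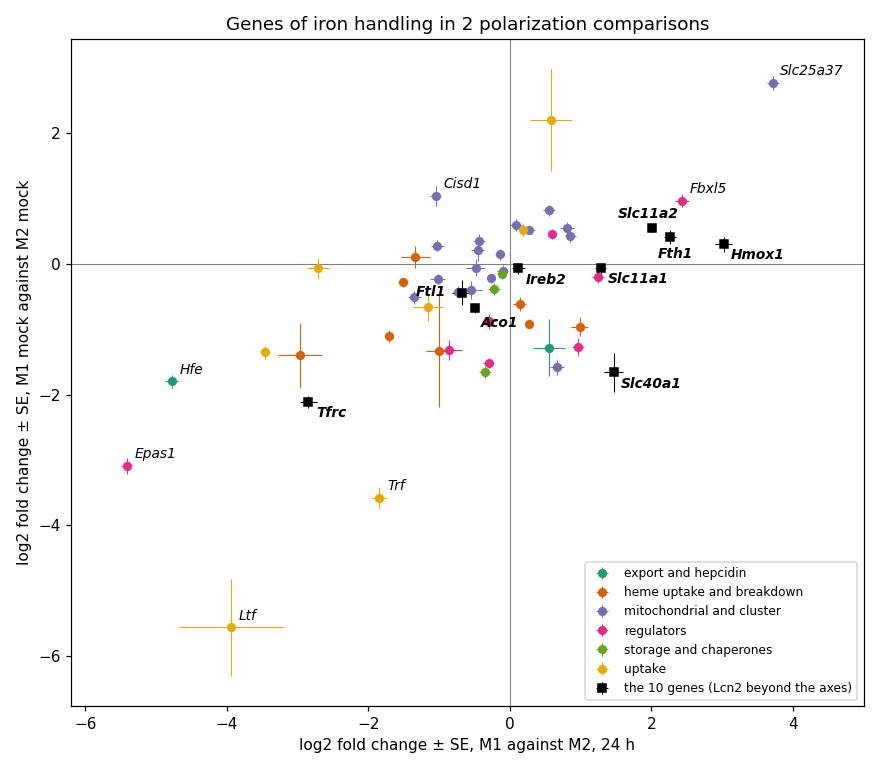
Difference between M1-like and M2-like macrophages (log2 fold change, above 0 is higher in M1-like) after 24 h (horizontal axis) and in mock-treated cells (vertical axis) for 48 genes of the wider list, coloured by role, and 9 of the 10 genes as black squares (Lcn2, at 10.49 and 4.66, lies beyond the axes); whiskers are ± SE. Tfrc, Epas1, Hfe, Trf and Ltf lie at the lower left and Slc25a37 at the upper right, while Slc40a1 (1.47 and -1.66) lies at the lower right.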

How the data were processed

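Raw read counts per Ensembl gene were deposited by the authors, who trimmed reads with Trimmomatic, aligned them with TopHat2 to GRCm38 and counted them with featureCounts. Tool versions, strand setting, the handling of multi-mapped reads and the annotation release are not given in the sources used here. Symbols were taken from GENCODE M21 (37607 of 39179 genes matched). In the 24 h experiment the counts of both technical replicates (chi-square per gene 1.07 to 1.10, against 5.86 to 96.6 between mice) were added up. Each experiment was fitted in a single model with edgeR 4.0.16 (R 4.3.3; filterByExpr with minimum count 10 and minimum total 15, TMM, quasi-likelihood test, Benjamini-Hochberg adjustment over 16110 or 14172 genes), and the fit was tested on simulated data. DESeq2 1.42.0, the tool the study names, was an alternative. The SE is the log2 fold change divided by the square root of F. Levels are CPM with TMM-scaled library sizes. Total counts set the precision of the low genes Slc40a1 and Lcn2.

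The genes, the wider iron list and the marker lists (macrophage, neutrophil, B cell, T cell, eosinophil, mast cell, mesothelial, erythroid) were chosen with earlier results of these data known. Named were all 10 genes, the ferritin pseudogenes, the siRNA targets, the 2 closest genes of each member (1 of them is not reported here), and from the wider list the 3 largest changes in each direction in M1-like against M2-like cells (24 h and mock) among called genes without overlap. Genes of the list named under knockdown, Cisd1 after 24 h, Cybrd1 and single neutrophil markers were chosen after their values were seen. Same-numbered samples of the 24 h experiment came from the same mouse, but the main fits held no term for mouse or replicate number. The correlation of deviations was -0.06 to 0.42 between same numbers (median 0.25) and -0.43 to 0.17 between different numbers (median -0.14). In the transfection experiment no source says that numbers pair samples. There it was -0.25 to 0.63 between same numbers (median 0.18) and -0.46 to 0.25 between different numbers (median -0.08).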

Additional observations from a re-analysis of the deposited data

Results flagged for a closer look

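The effect of polarization against M0 differed between mock-treated and untransfected cells, by edgeR's interaction test, for 7 gene and contrast combinations. The differences of log2 fold changes, mock minus untransfected, in the M1-like contrast were -0.71 for Fth1, -0.39 for Tfrc, -0.92 for Slc11a2 and 0.37 for Ireb2. In the M2-like contrast they were -0.64 for Fth1, -0.86 for Tfrc and -0.64 for Slc11a2. Mock-treated M0 cells themselves were higher than untransfected M0 cells in Fth1, Tfrc and Slc11a2.

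For 5 combinations every sample moved one way after 24 h and every sample of the untransfected cells in the transfection experiment moved the other way. The difference between the experiments was not tested, since they were sequenced and normalized separately. Slc40a1 in M1-like against M0 cells was 0.64 after 24 h and -1.85 in the transfection experiment, and in M1-like against M2-like cells 1.47 and -2.06. Ireb2 in M1-like against M0 cells was 0.35 and -0.25. In M2-like against M0 cells, Fth1 was -0.76 and 0.53 and Slc11a2 -0.12 and 0.34.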

How the results depend on the processing

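Every call of the 24 h experiment was kept with the mouse as a replicate block, with DESeq2, with RLE normalization, with the first technical replicate alone and with pseudogenes added, and Aco1 in M2-like against M0 cells was the call lost without a filter (adjusted p = 0.0524). Lcn2 could not be tested with at least 10 counts in every sample. DESeq2 changed 1 of 180 calls, Slc40a1 in mock M2-like against mock M0 (-0.78, adjusted p = 0.0364). Interactions were not run with DESeq2.

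The replicate block in the transfection experiment added 9 calls, lost none and raised the genes called in mock M2-like against mock M0 from 2 to 4. Without a filter these were 4 as well, with 7 in mock against untransfected M0 and 2 with E2f1 siRNA. In a fit of the compared groups alone they were 1 for mock M2-like against mock M0 and 2 with E2f1 siRNA. With mock as the reference, 3 genes were called with E2f1 and 3 with Stat6 siRNA, and the direction reversed for Slc40a1 with the combined, E2f1 and Myc pools (0.87, 1.09 and 0.71), for Aco1 with Myc (-0.23) and for Tfrc with Pparg siRNA (-0.40).

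With a log2 fold change of at least 1 required, the calls were 4 (M1-like against M0), 1 (M2-like against M0) after 24 h, and, in the transfection experiment, 5, 1 and 3 (untransfected M1-like against M0, M2-like against M0, M1-like against M2-like), 3, 1 and 3 (the same after mock), 0 and 0 (mock against untransfected M0 and M2-like), 1 (negative pool), and 1, 0, 1, 0 and 0 (combined, E2f1, Myc, Pparg, Stat6). In M1-like against M2-like cells after 24 h, the calls lost were those of Ftl1 and Aco1. The share of all genes passing this threshold was not computed.

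Leaving out 1 sample changed 64 of 1320 calls (54 lost, 10 gained) and reversed none. The number of genes called ranged from 2 to 3 for the M1-like interaction, 0 to 1 for mock against untransfected M2-like cells, 1 to 3 for Pparg and 0 to 1 for Stat6 siRNA.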

Other observations

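Reads on the ferritin light chain pseudogenes differed between the experiments. In M0 cells Ftl2-ps held 1685 ± 63 CPM with reads of 50 bases and 169 ± 13 CPM with reads of 150 bases, and Ftl1-ps2 held 487 ± 12 and 0.02 ± 0.04 CPM (SD, n = 3), whereas Ftl1-ps1 held 3385 ± 129 and 2950 ± 148 CPM. Read length and sequencing run differ together between the experiments, and their parts were not tested. Reads on the Fth1 pseudogene Fth-ps2 stayed at or under 0.40 CPM in all samples.

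B-cell markers summed to at most 13.8 CPM after 24 h and 33.2 CPM in the transfection experiment, mast cell markers to at most 2.86 and 5.99 CPM, and eosinophil markers to at most 18.5 and 45.8 CPM. Neutrophil markers reached at most 114 CPM, with Pparg siRNA, and the defining gene Ly6g had no read in any condition of the transfection experiment, whereas it had 0.26 to 0.56 CPM in the M1-like samples of the 24 h experiment.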
